A study of Linum usitatissimum with 8 samples.

Results

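FAD3A and FAD3B are 2 omega-3 fatty acid desaturase genes of flax (Linum usitatissimum) seed. They were taken from the deposited count table by gene ID, FAD3A as Lus10038321.g.BGIv1.0 and FAD3B as Lus10036184.g.BGIv1.0, and are 2 of the 40518 genes in that table. The table gives IDs without names. The names are those under which these IDs were chosen, and they were not checked against a sequence here. The RNA came from developing seeds of the cultivar Heiya No.14, and each of the 4 stages, labelled DAP5, DAP10, DAP20 and DAP30, has 2 libraries. All stages share the cultivar and the tissue, and no treatment is given. The labels do not spell out the stage names. Nor do they say that replicates are separate plants, and p-values therefore reflect no more than the spread of these libraries, part or all of which may be technical.

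Omega-3 desaturases of the FAD3 type sit in the endoplasmic reticulum, where they add the third double bond to linoleic acid bound to phosphatidylcholine and so make alpha-linolenic acid. This acid then passes into triacylglycerol, the storage oil of the seed. Linseed is grown for an oil rich in alpha-linolenic acid, and flax lines bred for a low content of it carry disrupted copies of both FAD3A and FAD3B. The 2 genes are close homologs. The sources used here do not say how reads matching both were assigned, so the split between them is uncertain, while their sum is less affected.

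The smallest library held 12951493 counts and the largest 27691831, or 2.14 times as many. Levels are given as CPM, a gene's counts relative to the size of its library, after TMM scaling, which adjusts library sizes on the assumption that most genes keep their level. Both genes passed the filter on low counts, as did 28749 genes in all. The libraries of a stage had Pearson correlations of log2(CPM + 1) of 0.959 to 0.987 across these genes, against 0.573 to 0.913 between stages. Genes are not independent replicates. Each library correlated more closely with its stage partner than with any other library.

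Both genes had one sharp maximum at DAP10, a lower level at DAP5, and at most 7.67 CPM in any library of DAP20 and DAP30. FAD3A averaged 21.6 ± 13.3 CPM at DAP5, 795 ± 129 CPM at DAP10, 4.12 ± 5.03 CPM at DAP20 and 1.57 ± 0.374 CPM at DAP30 (SD, n = 2). FAD3B averaged 32.3 ± 18.1 CPM at DAP5, 2140 ± 301 CPM at DAP10, 3.69 ± 1.69 CPM at DAP20 and 3.92 ± 0.0916 CPM at DAP30 (SD, n = 2). Both genes differed among the 4 stages in a joint test over all genes (edgeR quasi-likelihood, FDR = 0.000271 for FAD3A and 1.17e-05 for FAD3B), where 79.0% of all genes tested were called at a false discovery rate (FDR) below 0.05. In RNA from bulk seed, fewer cells that express a gene and less of its RNA per cell cannot be told apart.

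**Figure D1:**
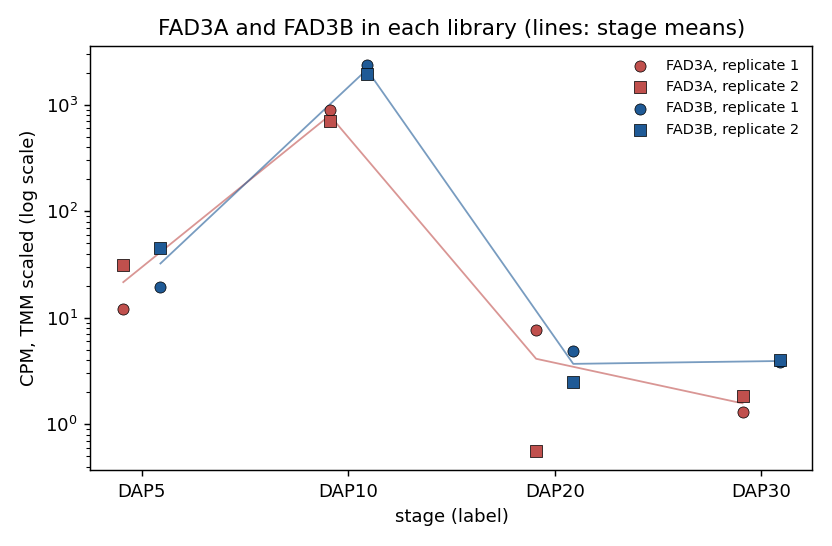
Level of FAD3A (red) and FAD3B (blue) in each library, as TMM-scaled CPM on a log axis, by stage. Circles are replicate 1, squares are replicate 2 and lines join the stage means. Both genes are highest at DAP10, and FAD3A has its widest gap between replicates at DAP20, at 7.67 and 0.561 CPM.

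In single libraries replicates 1 and 2 of DAP5 gave FAD3A 447 and 1248 counts, those of DAP10 14614 and 9963 counts, those of DAP20 143 and 9 counts, and those of DAP30 22 and 23 counts. These are 12.2 and 31.0 CPM at DAP5, 886 and 704 CPM at DAP10, 7.67 and 0.561 CPM at DAP20, and 1.31 and 1.83 CPM at DAP30. The DAP10 libraries stood far above all others, the DAP5 libraries above those of both later stages, and the DAP30 values lay between the 2 values of DAP20.

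For FAD3B, replicates 1 and 2 of DAP5 gave 718 and 1815 counts, those of DAP10 38819 and 27277 counts, those of DAP20 91 and 40 counts, and those of DAP30 65 and 50 counts. These are 19.5 and 45.1 CPM at DAP5, 2353 and 1927 CPM at DAP10, 4.88 and 2.49 CPM at DAP20, and 3.86 and 3.99 CPM at DAP30. The order was the same as for FAD3A, with DAP10 first, DAP5 next and the values of DAP30 within the range of DAP20.

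Under TMM scaling the order of the 8 libraries was identical for the 2 genes, from DAP10 replicate 1 at the top, through DAP10 replicate 2, DAP5 replicate 2, DAP5 replicate 1, DAP20 replicate 1, DAP30 replicate 2 and DAP30 replicate 1, to DAP20 replicate 2 at the bottom. Besides FAD3A, 16 of the genes tested had this order, or 0.0557%, and FAD3B was one of them. The order differed on library totals, where the DAP30 libraries of FAD3B stood at 3.06 and 3.02 CPM for replicates 1 and 2, with overlapping exact 95% binomial intervals, and those of FAD3A at 1.04 and 1.39 CPM.

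At DAP10 the pair ranked among the most abundant transcripts of the seed. FAD3A took 0.0965% and 0.0769% of all counts in the DAP10 libraries and ranked 72 and 101 by count. FAD3B took 0.256% and 0.211% and ranked 24 and 29. Per kilobase of the deposited gene length, FAD3B at DAP10 lay above 99.9% of the genes tested in both libraries, and FAD3A above 99.7% and 99.6%.

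At DAP5 FAD3A lay above 63.7% and 85.3% of the genes tested per kilobase, and FAD3B above 75.6% and 90.5%. At DAP20 the corresponding values were 52.9% and 16.4% for FAD3A and 43.7% and 33.2% for FAD3B. At DAP30 they were 29.5% and 34.2% for FAD3A and 43.6% and 44.9% for FAD3B. Depth set the precision of these low levels. The 9 counts of FAD3A in DAP20 replicate 2 are 0.462 CPM on the library total, with an exact 95% binomial interval of 0.211 to 0.876 CPM, while the 143 counts in replicate 1 are 6.43 CPM, with an interval of 5.42 to 7.57 CPM. The intervals do not overlap, and they cover counting error only.

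Both genes rose steeply to DAP10, FAD3B more than FAD3A in the fitted values. FAD3A had 886 and 704 CPM at DAP10, against 12.2 and 31.0 CPM at DAP5, a log2 change of 5.20 ± 0.97 (SE, edgeR FDR = 0.00976). FAD3B had 2353 and 1927 CPM at DAP10, against 19.5 and 45.1 CPM at DAP5, a log2 change of 6.05 ± 0.52 (SE, edgeR FDR = 0.000571). The stages did not overlap for either gene: the lower DAP10 library was 22.7 times the higher DAP5 library for FAD3A and 42.7 times for FAD3B.

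Of all genes tested, 12.4% were called higher at DAP10 than at DAP5, and both desaturase genes were among them. This background of 3564 genes was 2006 without DAP5 replicate 1, 1777 without DAP5 replicate 2, 1196 without DAP10 replicate 1 and 1316 without DAP10 replicate 2. A rise at least as large by log2 fold change was fitted for 248 other genes in the case of FAD3A and for 172 in the case of FAD3B. The FAD3A call was lost without DAP5 replicate 1 and without DAP10 replicate 1, with log2 changes of 4.67 and 5.02. Leaving out DAP5 replicate 2 gave a log2 change of 6.03. The fit over all 8 libraries takes its spread from every stage, DAP20 included. In a fit of DAP5 and DAP10 alone, the FAD3A log2 change was 5.20 ± 0.53 (SE, edgeR FDR = 0.00265). FAD3B stayed called without any 1 library, and its log2 fold change was 6.77 without DAP5 replicate 2.

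Both genes then fell to a small remnant of this maximum. FAD3A had 7.67 and 0.561 CPM at DAP20, against 886 and 704 CPM at DAP10, a log2 change of -7.57 ± 1.10 (SE, edgeR FDR = 0.00106). FAD3B had 4.88 and 2.49 CPM at DAP20, against 2353 and 1927 CPM at DAP10, a log2 change of -9.17 ± 0.60 (SE, edgeR FDR = 5.05e-05). The mean at DAP20 was 0.518% of the DAP10 mean for FAD3A and 0.172% for FAD3B.

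Called lower at DAP20 than at DAP10 were 27.8% of all genes tested, both desaturase genes included. A fall at least as large was fitted for 415 other genes in the case of FAD3A and for 166 in the case of FAD3B. Falls that large were few among genes as abundant at DAP10. Of the 85 genes with a DAP10 mean of at least that of FAD3A, itself included, 38 (44.7%) were called lower at DAP20. A fitted fall at least as large was found for 3 of the 85 (3.53%), against 1.45% of all genes tested. FAD3A and FAD3B were among these 3. The share therefore rests mainly on the desaturase genes themselves, and is no measure of how common such falls were. The set of 85, like the next, was taken by DAP10 level, from which the fall is measured. Of the 26 genes with a DAP10 mean of at least that of FAD3B, itself included, 10 (38.5%) were called lower, and FAD3B had the largest fitted fall of the 26. The log2 fold change of FAD3A was -10.46 without DAP20 replicate 1 and -6.70 without DAP20 replicate 2, and it stayed called in both.

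**Figure D2:**
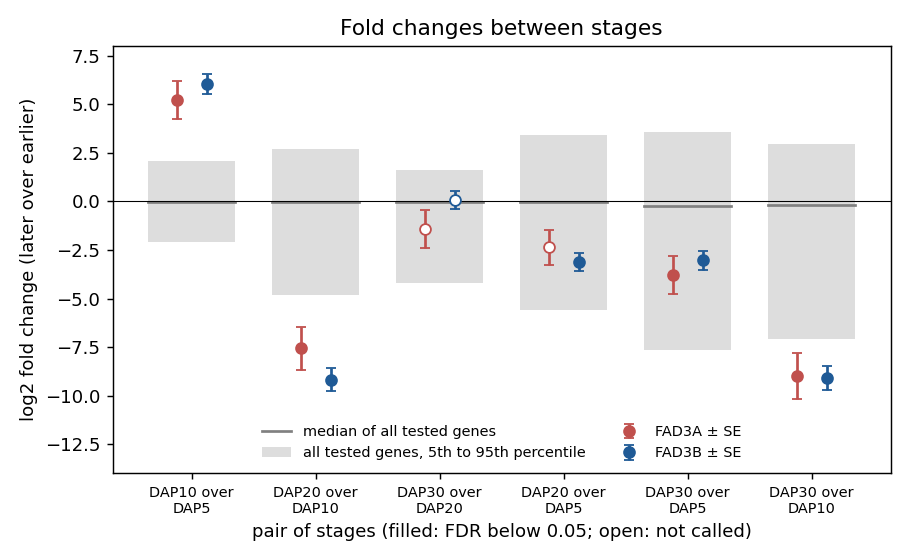
Log2 fold change of FAD3A (red) and FAD3B (blue) between each pair of stages, later over earlier, with standard errors from the edgeR fit. Filled circles have an FDR below 0.05, open circles do not, grey bars span the 5th to 95th percentile of all genes tested and the grey line is their median. Both genes lie outside the grey bar for DAP10 over DAP5, DAP20 over DAP10 and DAP30 over DAP10.

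No further change was called after DAP20. FAD3A had 1.31 and 1.83 CPM at DAP30, against 7.67 and 0.561 CPM at DAP20, a log2 change of -1.42 ± 0.997 (SE, edgeR FDR = 0.309). FAD3B had 3.86 and 3.99 CPM at DAP30, against 4.88 and 2.49 CPM at DAP20, a log2 change of 0.08 ± 0.47 (SE, edgeR FDR = 0.929). The stages overlapped for both genes, and 32.5% of all genes tested were called in this step in either direction. This background of 9338 genes was 4660 without DAP30 replicate 1 and 5069 without DAP30 replicate 2. The FAD3A value was decided by single DAP20 libraries: it was 1.46 without DAP20 replicate 1 (edgeR FDR = 0.247) and -2.30 without DAP20 replicate 2, where it was called (edgeR FDR = 0.0222). For FAD3B the sign of this small difference also turned, to -0.02 with library totals in place of TMM and to -0.31 without DAP20 replicate 2.

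Across the longer spans, both genes at DAP30 stood far below DAP10, where 36.7% of all genes tested were called lower. The log2 fold change was -8.99 ± 1.19 for FAD3A (SE, edgeR FDR = 0.000422) and -9.09 ± 0.60 for FAD3B (SE, edgeR FDR = 2.41e-05). The stages did not overlap, and the lower DAP10 library was 384 times the higher DAP30 library for FAD3A and 483 times for FAD3B.

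Both genes also ended below their DAP5 level. FAD3A had 1.31 and 1.83 CPM at DAP30, against 12.2 and 31.0 CPM at DAP5, a log2 change of -3.79 ± 0.996 (SE, edgeR FDR = 0.0104). FAD3B had 3.86 and 3.99 CPM at DAP30, against 19.5 and 45.1 CPM at DAP5, a log2 change of -3.04 ± 0.47 (SE, edgeR FDR = 0.000813). Since 38.9% of all genes tested were called lower at DAP30 than at DAP5, such a call is common. The FAD3A call was lost without DAP30 replicate 1 (edgeR FDR = 0.079) and without DAP30 replicate 2 (edgeR FDR = 0.0558). Without DAP5 replicate 2 the log2 fold change was -2.97 for FAD3A and -2.32 for FAD3B, and both stayed called.

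From DAP5 to DAP20, FAD3B fell and FAD3A missed the threshold. FAD3B had 4.88 and 2.49 CPM at DAP20, against 19.5 and 45.1 CPM at DAP5, a log2 change of -3.12 ± 0.47 (SE, edgeR FDR = 0.000982), or -2.40 without DAP5 replicate 2. FAD3A had 7.67 and 0.561 CPM at DAP20, against 12.2 and 31.0 CPM at DAP5, a log2 change of -2.37 ± 0.89 (SE, edgeR FDR = 0.0504). Its FDR ran from 0.00103 to 0.219 over the alternatives, the lowest without DAP20 replicate 1 and the highest without DAP5 replicate 2. Whether the fall differed between the 2 genes is not shown by one call and one miss. Of all genes tested, 31.6% were called lower at DAP20 than at DAP5.

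Scaling moved these values but not the directions named as changes. With library totals in place of TMM, the median log2 change over all genes tested was -0.40 for DAP10 over DAP5, -0.42 for DAP20 over DAP10 and -1.11 for DAP30 over DAP5, in place of -0.02, -0.03 and -0.24. The FAD3A fold change for DAP20 over DAP5 was -3.15 under library totals and was then called (edgeR FDR = 0.0186), while the median over all genes tested was -0.82, against -0.05 under TMM.

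The replicates of both desaturase genes differed in the same direction at DAP5. DAP5 replicate 2 held 2.55 times the CPM of replicate 1 for FAD3A and 2.31 times for FAD3B. Only 1.52% and 1.95% of the genes tested had a larger difference between these libraries on the log2(CPM + 1) scale, whose median size was 0.20. That scale shrinks the differences of genes at low levels, and genes of like level were not compared separately. Among the other 1263 genes that were called higher at DAP10 than at DAP5 and lower at DAP20 than at DAP10, 715 (56.6%) were higher in DAP5 replicate 2 than in replicate 1, against 49.3% of all genes tested, and the median difference was 0.05. At DAP20, 507 of these genes (40.1%) were higher in replicate 2 than in replicate 1, against 48.5% of all genes tested, with a median difference of -0.05. At DAP10 560 of them (44.3%) were higher in replicate 2, against 49.7% of all genes tested. At DAP30 the values were 528 (41.8%) and 42.9%. The part of these replicate differences in the spread of FAD3A and FAD3B was not tested.

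At DAP20 the replicates parted for FAD3A much more than for FAD3B. DAP20 replicate 1 held 13.7 times the CPM of replicate 2 for FAD3A and 1.96 times for FAD3B. On the same log2(CPM + 1) scale, a larger difference between these libraries was found for 0.856% of the genes tested in the case of FAD3A. For FAD3B it was found for 14.6%. At DAP10 and DAP30 the higher replicate was 1.03 to 1.40 times the lower for both genes.

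The balance between the 2 genes was compared within libraries. Scaling between libraries cancels in shares of counts, but not fully in log2 ratios with a pseudocount, where low levels are drawn towards a ratio of 1. The deposited gene lengths are 1752 bases for FAD3A and 1745 bases for FAD3B, and levels of the 2 genes are set side by side as RPKM, the CPM per kilobase of that length. FAD3A averaged 454 ± 73.5 RPKM and FAD3B 1226 ± 173 RPKM at DAP10 (SD, n = 2). FAD3A was below FAD3B in 7 of 8 libraries, with a mean log2(RPKM + 0.1) difference of -0.98, FAD3A minus FAD3B. An exact two-sided sign-flip permutation test over 8 libraries gave p = 0.0234, where the smallest possible is 0.00781. The test takes the 8 libraries as independent, although they are 2 from each of 4 stages, and asks only for a common direction.

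The library with FAD3A above FAD3B was DAP20 replicate 1. FAD3A made up 38.4% and 40.7% of the summed counts of both genes in the DAP5 libraries, with exact 95% binomial intervals of 35.6% to 41.2% and 39.0% to 42.5%. At DAP10 its share was 27.4% and 26.8%, with intervals of 27.0% to 27.7% and 26.3% to 27.2%. Replicates thus lay close together at both stages, and the DAP10 shares lay below those of DAP5.

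At DAP20 the share was 61.1% in replicate 1, with an interval of 54.5% to 67.4% over 234 counts, and 18.4% in replicate 2, with an interval of 8.76% to 32.0% over 49 counts. The 2 libraries lay on either side of all the others. At DAP30 it was 25.3% and 31.5%, with intervals of 16.6% to 35.7% and 21.1% to 43.4%. These overlapped each other and the intervals of both DAP10 libraries and of DAP5 replicate 1. The interval of DAP30 replicate 2 also held that of DAP5 replicate 2.

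**Figure D3:**
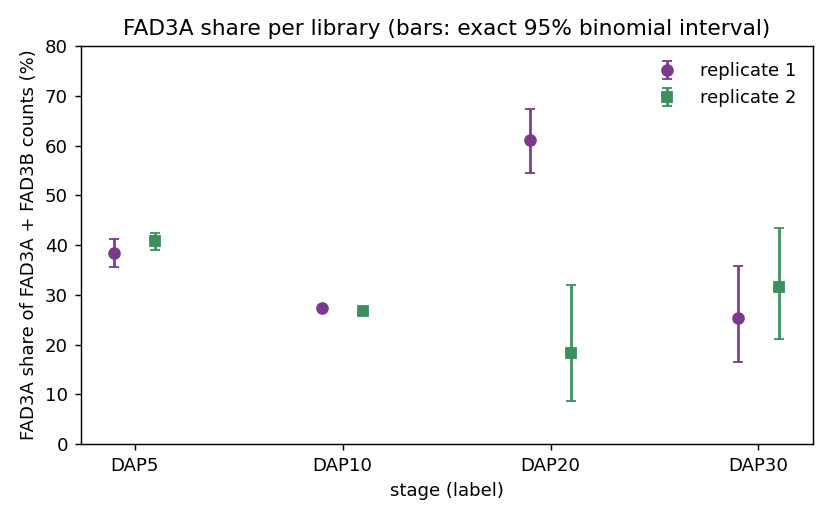
FAD3A counts as a percentage of FAD3A plus FAD3B counts in each library, by stage, with exact 95% binomial intervals for counting error. Purple circles are replicate 1 and green squares are replicate 2. The DAP10 libraries sit at 27.4% and 26.8%, below the DAP5 libraries at 38.4% and 40.7%, and the DAP20 libraries lie far apart at 61.1% and 18.4%.

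Over all 4 stages the balance was not shown to differ by stage beyond the spread between replicates. On the log2(RPKM + 0.1) scale, FAD3A minus FAD3B averaged -0.61 ± 0.10 in DAP5 libraries, -1.44 ± 0.03 in DAP10 libraries, -0.62 ± 1.76 in DAP20 libraries and -1.25 ± 0.28 in DAP30 libraries (SD, n = 2). An exact permutation test over all divisions of the 8 libraries into 4 pairs gave p = 0.762, where the smallest possible is 0.00952, and the wide spread at DAP20 enters it in full. With a pseudocount of 1 RPKM in place of 0.1 RPKM, p was 0.133, and the mean difference was -0.19 at DAP20 and -0.78 at DAP30. For DAP10 against DAP5 alone the difference in log2 ratio was -0.82, and an exact two-sided permutation test gave p = 0.333, the smallest that 2 against 2 libraries can reach.

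The sum of both genes followed the same course. It averaged 53.9 ± 31.4 CPM at DAP5, 2935 ± 430 CPM at DAP10, 7.80 ± 6.72 CPM at DAP20 and 5.49 ± 0.465 CPM at DAP30 (SD, n = 2). With 1 library of the stage left out, the sum was 31.7 or 76.1 CPM at DAP5 and 3.05 or 12.6 CPM at DAP20. The means at DAP5, DAP20 and DAP30 were 1.84%, 0.266% and 0.187% of the mean at DAP10.

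FAD3A and FAD3B were among 1265 genes (4.40% of those tested) called higher at DAP10 than at DAP5 and lower at DAP20 than at DAP10, and 819 of these, both desaturase genes included, had no call between DAP20 and DAP30. The range between the highest and lowest stage mean, as log2(CPM + 1), was at least as wide as that of FAD3A for 0.487% of the genes tested and as that of FAD3B for 0.334%, the gene itself included.

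Likeness of pattern was measured by the Pearson correlation of log2(CPM + 1) over the 8 libraries, leaving out genes whose mean was under 10 CPM. These values describe shared libraries, depth and scaling and carry no p-value. FAD3A and FAD3B correlated at 0.988, which placed FAD3B at rank 6 among the 14865 other genes by likeness to FAD3A, and FAD3A at rank 16 by likeness to FAD3B. A correlation of at least 0.95 was reached by 142 genes with FAD3A and by 149 with FAD3B, against medians over all these genes of -0.25 and -0.24. The rank of FAD3B ran from 5 to 22 with single libraries left out, the first without DAP20 replicate 1 and the second without DAP5 replicate 1.

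The gene most like FAD3A was Lus10003915.g.BGIv1.0, for which the table gives no name (r = 0.997 over 8 libraries). It had 2.86 and 4.99 CPM at DAP5, 61.0 and 54.1 CPM at DAP10, 1.77 CPM and no count at DAP20, and no count in either DAP30 library, where 3 counts would be 0.141 and 0.181 CPM on library totals. Like FAD3A it was higher in DAP5 replicate 2 than in replicate 1, and higher in DAP20 replicate 1 than in replicate 2. Since it was picked by correlation over these same libraries, the shared differences are a description.

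The gene most like FAD3B was Lus10007696.g.BGIv1.0 (r = 0.995). It had 1.90 and 6.34 CPM at DAP5, 126 and 181 CPM at DAP10, 0.107 and 0.125 CPM at DAP20, and 0.178 and 0.399 CPM at DAP30. On library totals 3 counts would be 0.135 and 0.154 CPM at DAP20, and more after TMM scaling. Its values there lie below 3 counts in both libraries. For DAP30, 3 counts would be 0.141 and 0.181 CPM on library totals, again more after scaling. Its replicate 1 value there lies near this level. It was higher in replicate 2 than in replicate 1 at DAP5 and DAP10, as FAD3B was at DAP5 but not at DAP10. At DAP20 and DAP30 its counts are too few to order the replicates. It too was picked by this correlation.

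The most opposed patterns were dips at DAP10. Lus10029166.g.BGIv1.0, most opposed to FAD3A (r = -0.997), averaged 421 ± 50.3 CPM at DAP5, 173 ± 6.34 CPM at DAP10, 679 ± 189 CPM at DAP20 and 777 ± 30.4 CPM at DAP30 (SD, n = 2). Lus10034774.g.BGIv1.0, most opposed to FAD3B (r = -0.997), averaged 12.1 ± 1.16 CPM at DAP5, 7.18 ± 0.130 CPM at DAP10, 15.2 ± 0.301 CPM at DAP20 and 14.9 ± 0.825 CPM at DAP30 (SD, n = 2). Since both were picked by this correlation, their low DAP10 levels are a description.

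**Figure D4:**
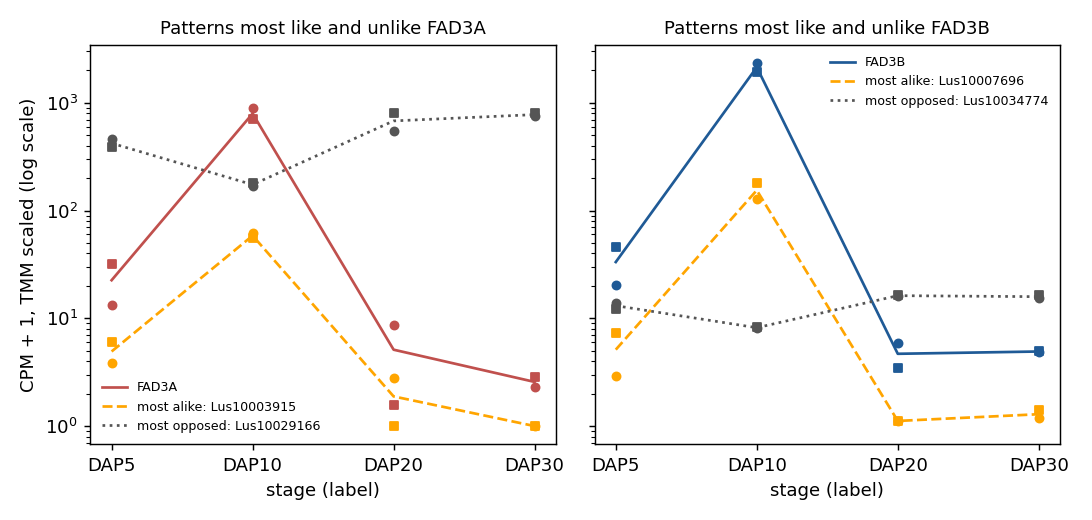
Level of FAD3A (left) and FAD3B (right) with the most alike gene (orange, dashed) and the most opposed gene (grey, dotted) by correlation over 8 libraries, as TMM-scaled CPM + 1 on a log axis, by stage. Circles are replicate 1, squares are replicate 2 and lines join stage means. The alike genes peak at DAP10 at 57.6 and 153 CPM, and the opposed genes are lowest there at 173 and 7.18 CPM.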

How the data were processed

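The authors deposited raw read counts per gene for 8 libraries as 1 table, beside a gene length of unstated definition. Per the labels' protocols, RNA was isolated with TRIzol and sequenced from NEBNext Ultra RNA libraries. The aligner, counter, genome build and strand setting belong to the details not given in the sources used here. Columns were matched to samples by the library code in the descriptions.

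Counts were analysed in R 4.3.3 with edgeR 4.0.16. Genes were kept by filterByExpr (minimum count 10, minimum total 15), TMM scaled the libraries, and 1 quasi-likelihood fit over all 8 libraries had stage as its only term. P-values were adjusted by Benjamini-Hochberg over 28749 genes. A standard error is the size of the log2 change over the square root of F. Alternatives used DESeq2 1.42.0, limma 3.58.1 (voom), other scalings, no filter, 2-stage fits, a replicate block and left-out libraries. The fit was also run on simulated counts in which some genes changed at DAP10 only, a simpler setting than these data. The other genes named are those with the highest and lowest correlation with each desaturase gene, leaving out genes under a mean of 10 CPM. Both genes, the rule and the tests were chosen with earlier results of these data known. Lists of other oil genes were not used, since the table pairs no IDs with names.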

Additional observations from a re-analysis of the deposited data

How the results depend on the processing

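FAD3B kept every call under the alternatives run, and FAD3A kept its calls for DAP20 and DAP30 against DAP10. For DAP20 over DAP5, which missed the threshold, the FAD3A log2 change was -3.15 with library totals, -2.44 with DESeq2 size factors in edgeR, -2.40 without the filter and -3.09 by limma-voom, all called, and the cause was not tested. DESeq2 did not call it (FDR = 0.0579). With single libraries left out, FAD3A log2 changes ran from 4.67 to 6.03 for DAP10 over DAP5, from -5.27 to -1.51 for DAP20 over DAP5, from -4.32 to -2.97 for DAP30 over DAP5 and from -2.30 to 1.46 for DAP30 over DAP20. Those of FAD3B for DAP30 over DAP20 ran from -0.31 to 0.65, and the value was -0.021 with library totals. A stage left with 1 library is assumed to vary like the others.

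The log2 ratio of FAD3A to FAD3B at DAP20 was 0.63 without DAP20 replicate 2, and -1.86 without DAP20 replicate 1. By likeness to FAD3A the rank of FAD3B was 1 by Spearman's rho, a place shared with 6 other genes, 10 with library totals, 14 with a pseudocount of 0.1 CPM and 15 among all genes past the filter, and ran from 5 to 22 with libraries left out. The summed level at DAP30 was 4.25 CPM with library totals. This setting, and libraries left out for levels and this rank, were chosen after seeing the data.

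Numbers of genes called moved by over 1.5 times in these cases. Genes higher at DAP10 than at DAP5 numbered 2100 with library totals, and 1196 to 4686 with single libraries left out (3564 as reported). Genes lower at DAP20 than at DAP5 numbered 14361 with library totals (9095). Genes called for DAP30 over DAP20 numbered 5796 in a fit of these 2 stages alone, and 4660 to 9390 with libraries left out (9338).

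Replicate numbers recur across stages, but the labels do not say that they pair libraries. Deviations of same-numbered libraries correlated at -0.04 to 0.16, negatively for DAP5 with DAP20 and DAP30. With the replicate block the FAD3A log2 change for DAP20 over DAP5 was -2.53 (FDR = 0.0667), no call of either gene changed, and the numbers of genes called stayed within 1.5 times.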
